A study of Homo sapiens with 2 samples.

Results

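The genes described are 8 lung and endoderm lineage factors, NAPSA, FOXA1, FOXA2, GATA4, GATA6, SOX9, KLF4 and KLF5, chosen by name. All 8 were found among the 12936 named genes of the table, each on 1 line, and 0 were absent. None of the 8 differed 2-fold between A549 cells with MYOCD knocked down and wild type A549 cells. Of all genes whose mean reached 1 RPKM, 1.37% did, so a count of 0 among 8 is not a result about them. NAPSA, KLF5 and FOXA2 were lower in the knockdown library, with log2 differences of -0.36, -0.33 and -0.31, and SOX9 was highest at 0.27. All 8 differences lay within the central 95% of those of genes of like level.

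A549 is an established human lung adenocarcinoma line with epithelial growth. RNA-seq had been run on 1 library of cells labelled MYOCD knockdown and 1 library of cells labelled wild type, so the values below carry no replicate error and none of the differences was tested. Both libraries came from cells in medium with 10% serum and carry a label of doxycycline for 72 h, while the series' design text describes the wild type cells as not treated, so knockdown and doxycycline may differ together. The sample with the genotype label knockdown is titled MYOCD-/-, which usually denotes loss of both alleles, and the labels do not settle which it is. The sources used here do not give how it was made or whether it is 1 clone. MYOCD, the coactivator that was targeted, had 0.401 RPKM in the knockdown library and 0.881 RPKM in the wild type library. These values lie on either side of the lowest value that the higher library takes in any locus, 0.652 RPKM, so this check of the knockdown is weak. RPKM divides reads by the length of the transcript and by library size, and no read counts were given, so the depth behind each value is unknown. In bulk RNA, fewer cells that make a message and less of it per cell cannot be told apart.

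The foregut endoderm, from which lung, liver, stomach and pancreas derive, is specified by pioneer factors that open closed chromatin. FOXA1 and FOXA2 are forkhead proteins of this kind, and GATA4 and GATA6 are zinc finger proteins that act with them. In the lung, GATA6 and the FOXA proteins act with the homeobox factor NKX2-1 to drive surfactant genes, and SOX9 marks the distal tips of the branching epithelium. KLF5 is a Krüppel-like factor needed for maturation of the perinatal mouse lung, and KLF4, a relative, is known for restraining epithelial growth and for reprogramming cells to pluripotency. NAPSA encodes napsin A, an aspartic protease of alveolar type II cells that processes pro-surfactant protein B, and it is used to recognise lung adenocarcinoma.

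Promoter windows are shown for FOXA1, KLF4 and KLF5 because these windows hold letters that the factors' own families recognise, and because KLF4 and KLF5 differed in opposite directions between the libraries. Each runs from 250 bases before to 50 bases after the RefSeq start, read 5′ to 3′ on the gene's strand (RefSeq, GRCh38.p14). Capitals mark matches, on either strand, to GGGCGG, the GC box bound by KLF and SP proteins. They also mark the forkhead words TGTTTAC and its variant TGTTTGC. The GATA words searched were AGATAA and its variant TGATAA. The SOX words searched were ACAAAG and its variant ACAATG.
FOXA1, chr14:37595200-37595499, minus strand: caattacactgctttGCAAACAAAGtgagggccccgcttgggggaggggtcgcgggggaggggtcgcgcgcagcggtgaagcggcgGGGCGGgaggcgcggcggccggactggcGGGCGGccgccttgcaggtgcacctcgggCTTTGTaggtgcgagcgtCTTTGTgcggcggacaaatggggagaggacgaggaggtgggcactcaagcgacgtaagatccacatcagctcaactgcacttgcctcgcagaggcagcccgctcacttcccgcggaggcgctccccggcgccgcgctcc
KLF4, chr9:107489720-107490019, minus strand: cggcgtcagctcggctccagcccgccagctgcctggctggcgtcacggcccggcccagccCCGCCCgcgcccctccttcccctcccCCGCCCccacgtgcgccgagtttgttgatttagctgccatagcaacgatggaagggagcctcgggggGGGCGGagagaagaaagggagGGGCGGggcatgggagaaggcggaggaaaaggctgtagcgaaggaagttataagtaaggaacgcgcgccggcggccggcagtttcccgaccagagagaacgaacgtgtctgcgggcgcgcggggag
KLF5, chr13:73058755-73059054, plus strand: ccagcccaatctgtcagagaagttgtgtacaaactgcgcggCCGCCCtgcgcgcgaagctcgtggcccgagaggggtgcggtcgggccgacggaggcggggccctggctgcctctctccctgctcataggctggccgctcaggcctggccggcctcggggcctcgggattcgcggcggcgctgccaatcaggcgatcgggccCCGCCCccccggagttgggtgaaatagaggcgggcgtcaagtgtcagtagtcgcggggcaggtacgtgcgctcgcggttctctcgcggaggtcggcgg

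The KLF4 window held 4 GC boxes, and the KLF5 window shown and the FOXA1 window held 2 each. The windows of GATA6 and NAPSA and the KLF5 window not shown held none. At least 1 GGGCGG stood in 45.0% of all 35116 RefSeq windows of this length. The shares below also count windows with at least 1 match, and no share was taken for several matches. The FOXA1 window also held 1 match to TGTTTGC, which 3.89% of all windows hold, and 3 matches to ACAAAG, which 16.1% hold. The match to TGTTTGC and the first match to ACAAAG share bases. No TGTTTAC stood in the windows of the members, and 3.42% of all windows hold it. Neither GATA word stood in them, although AGATAA is in 10.3% of all windows, and TGATAA in 7.53%. RefSeq gave 7 windows for 5 of the members, FOXA1, GATA6, KLF4, KLF5 and NAPSA. GATA6 had 1 window, and KLF5 and NAPSA had 2 each, of which the second KLF5 window held 1 match to ACAATG, found in 10.8% of all windows. The CArG box, the site of serum response factor, through which myocardin acts on muscle genes, was in none of the 7 windows and in 1.29% of all windows. The windows shown for KLF5, FOXA1 and KLF4 were 71.3%, 69.3% and 69.0% G or C. The GATA6 window was 66.7%, the other KLF5 window 40.7%, and the NAPSA windows 56.3% and 54.7%. The median over all windows was 58.7%. A match is a run of letters and not a measured site.

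The order of the levels was the same in both libraries for all 8 members. KLF5 was highest, followed by FOXA2, FOXA1, SOX9, KLF4, GATA4, NAPSA and GATA6, and the highest mean was 22.4 times the lowest. Of the 7 neighbouring pairs in that order, 2 overlapped over the libraries, KLF5 with FOXA2 and NAPSA with GATA6. With 1 library per group, this overlap is set by 2 values a gene. Only KLF5 and FOXA2 lay above the median mean of the named genes, 11.3 RPKM, and the other 6 lay below it.

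**Figure D1:**
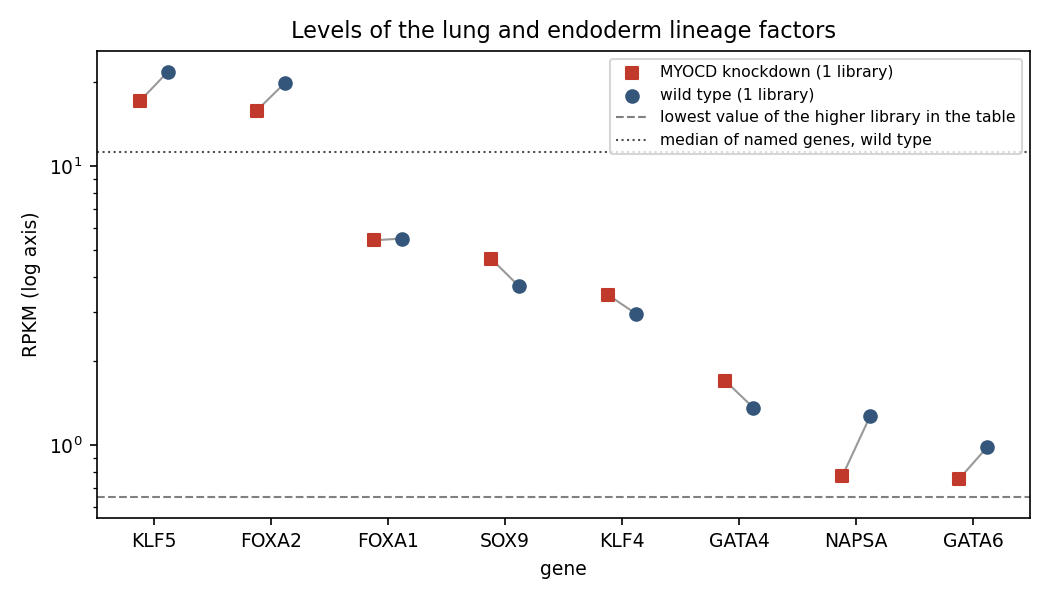
RPKM of each lineage factor on a log axis, in the MYOCD knockdown library (red squares) and the wild type library (blue circles), with 1 library per group and genes ordered by mean. KLF5 and FOXA2 stand above the dotted median of named genes, and NAPSA and GATA6 stand near the dashed line at 0.652 RPKM, the lowest value that the higher library takes in any locus.

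Both pioneer forkhead genes of the set were present at clearly different levels. FOXA2 had 15.8 RPKM in the knockdown library and 19.9 RPKM in the wild type library. FOXA2 in the knockdown thus stood at 79.6% of wild type, and the log2 ratio was -0.33. With a pseudocount of 1 added to each value, the scale used for the counts here, the log2 difference was -0.31. FOXA2 was among the higher forkhead genes, with rank 3 of the 23 measured, after FOXM1, a proliferation factor, and FOXK2.

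FOXA1 had 5.42 RPKM in the knockdown library and 5.50 RPKM in the wild type library. It was the least different of the 8, with a log2 difference of -0.02, and 94.7% of the 4000 genes within 2-fold of its mean differed by at least as much. FOXA2 stood at 2.92 times FOXA1 in the knockdown library and at 3.61 times in the wild type library. Such a ratio within a library does not depend on how the libraries are scaled. FOXA3, a hepatic factor and the remaining FOXA gene, had 0.392 RPKM in the knockdown library and 0.745 RPKM in the wild type library, so FOXA2 was the main FOXA message in both.

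The GATA genes of the set were low. GATA4, a factor of heart and gut that partners FOXA proteins in liver endoderm, had 1.70 RPKM in the knockdown library and 1.36 RPKM in the wild type library. Its log2 difference was 0.19, and 52.7% of the 2097 genes of like mean differed by at least as much. GATA6, the GATA factor of lung epithelium, had 0.756 RPKM in the knockdown library and 0.983 RPKM in the wild type library. GATA6 differed the other way, with a log2 difference of -0.18. Of the 1528 genes of like mean, 58.6% differed by at least as much as GATA6. GATA4 stood at 2.25 times GATA6 in the knockdown library and at 1.39 times in the wild type library. Both GATA6 values lay near the floor of the table, 0.652 RPKM, so small changes in them move this ratio. Of 5 measured GATA genes, GATA2, a blood and endothelial factor, was highest, at 3.87 RPKM in the knockdown library and 4.65 RPKM in the wild type library. GATA6 was the lowest of the 5 by mean, and its mean of 0.869 RPKM was under the 1 RPKM asked for in the count over all genes.

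SOX9, a high mobility group factor of distal lung progenitors and of cartilage, had 4.67 RPKM in the knockdown library and 3.71 RPKM in the wild type library. It was 25.7% higher in the knockdown, a log2 difference of 0.27, the highest of the 8. Among 3482 genes within 2-fold of its mean, 33.0% differed by at least as much. It had rank 4 by mean among 10 measured SOX genes. SOX12 and SOX4, the highest of that family, are SoxC genes, and both were lower in the knockdown library, with log2 differences of -0.08 and -0.24. SOX21 had 0.459 RPKM in the knockdown library and 1.54 RPKM in the wild type library, the lowest log2 difference among SOX genes at -0.80. Its knockdown value lay under 0.652 RPKM, the lowest value that the higher library takes in any locus.

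The Krüppel-like factors of the set went in opposite directions. The 16 other KLF and SP genes measured also went both ways, with 5 higher and 11 lower by any amount. Over all genes, 47.9% were lower by any amount. KLF5 had 17.1 RPKM in the knockdown library and 21.8 RPKM in the wild type library. KLF5 in the knockdown thus stood at 78.5% of wild type, with a log2 difference of -0.33. Of the 4765 genes within 2-fold of its mean, 13.0% differed by at least as much, the smallest such share of the 8. KLF4 had 3.46 RPKM in the knockdown library and 2.95 RPKM in the wild type library, a log2 difference of 0.17. Of the 2978 genes within 2-fold of the mean of KLF4, 53.7% differed by at least as much. KLF5 thus stood at 4.95 times KLF4 in the knockdown library and at 7.38 times in the wild type library. Among 12 measured KLF genes, KLF5 had rank 3 and KLF4 rank 10 by mean. KLF10, induced by TGF-beta, was the highest, with 37.0 RPKM in the knockdown library and 27.0 RPKM in the wild type library. KLF13, next in that order, had 17.1 RPKM in the knockdown library and 23.7 RPKM in the wild type library.

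**Figure D2:**
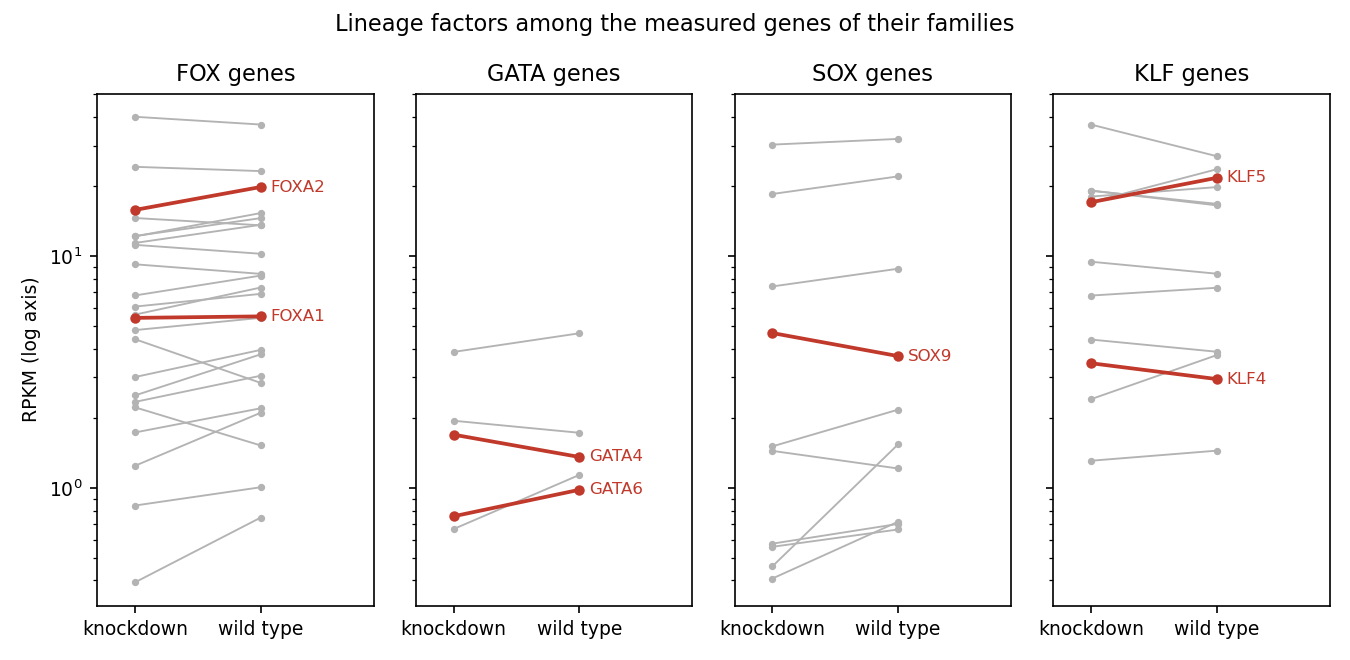
RPKM on a log axis of every measured FOX, GATA, SOX and KLF gene, with the knockdown library on the left of each panel, the wild type library on the right, a line per gene and the lineage factors in red. FOXA2 and KLF5 lie near the top of their families and slope up towards the wild type, while SOX9, KLF4 and GATA4 slope down towards it.

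KLF5 was also the 1 member whose longest annotated 3′ UTR holds AATATGC. That word had been picked in earlier work on these data because genes lower in the knockdown library hold it more often than other genes. Its presence in a lower gene is thus no separate evidence. The match and its surroundings are shown with the word in capitals (GENCODE release 29, GRCh38, chromosome 13, plus strand), and it begins at base 554 of the 1656 bases of the UTR.
KLF5 3′ UTR: aaattttgtaAATATGCaaatcagctt

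Of 10730 measured genes with an annotated 3′ UTR, 12.3% hold the word. Among those whose mean reached 1 RPKM, the median log2 difference was -0.02 over the 1267 genes that hold it and 0.02 over the 8904 that do not. Lower by 2-fold or more were 11 (0.868%) of the genes that hold it and 27 (0.303%) of the others, so most genes that much lower lack it. As the word was picked from these data, this comparison is no separate evidence either. FOXA2 and NAPSA, the other members with log2 differences below -0.3, do not hold it. Whether the word has a part in the level of KLF5 was not tested.

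NAPSA, the differentiation product of the set, had 0.771 RPKM in the knockdown library and 1.27 RPKM in the wild type library. Its level in the knockdown was 60.6% of that in wild type, and its log2 difference of -0.36 with the pseudocount was the lowest of the 8, or -0.72 without it. Both values were close to the floor of the table, where 24.3% of the 1746 genes of like mean differed by at least as much. Loci under 0.652 RPKM in both libraries are not among the values used here, so genes near that floor are present more readily if the libraries differ, which raises this share. The NAPSA gene lies within the annotated span of NR1H2 on the opposite strand, although no exonic base is shared. NR1H2, the nuclear receptor LXR-beta, had 50.9 RPKM in the knockdown library and 53.3 RPKM in the wild type library. The sources used here do not state whether counting used strand, and whether NR1H2 reads add to the NAPSA value was not tested.

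Other overlaps with annotated genes were short. GATA6 shares 6.08% of its exonic bases with GATA6-AS1 and 8.14% with another antisense gene, FOXA2 shares 2.69% with a protein-coding model on its own strand, and FOXA1 shares 16 bases with TTC6. SOX9 lies inside SOX9-AS1 and shares no exonic base with it. None of these neighbours had a value under its GENCODE name among those used here. In GENCODE release 29 on GRCh38, NAPSA lies on the minus strand of chromosome 19 from 50358477 to 50365830, FOXA2 on the minus strand of chromosome 20 from 22581005 to 22585455, and SOX9 on chromosome 17, plus strand, from 72121020 to 72126420. The authors' loci may have other boundaries, as their table gives no coordinates.

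The background was counted over the 12158 named genes whose mean reached 1 RPKM. In the knockdown library 79 of them (0.65%) were higher by 2-fold or more, 88 (0.724%) were lower by 2-fold or more, and 1.37% were so in either direction. All 8 members are protein-coding, and among 11038 protein-coding genes 17 (0.154%) were higher by that much, 43 (0.39%) were lower, and 0.544% were so in either direction. Of the 8 members, 0 were at least 2-fold apart, and 7 reached that mean. Against either background, a count of 0 among so few genes is not a result about them. Lower by any amount were 5 of the 8, against 47.9% of all genes. The median log2 difference was -0.10 over the 8 members and 0.01 over all genes, whose central 95% ran from -0.64 to 0.51. Each member lay inside the central 95% of the genes within 2-fold of its own mean. That range ran from -0.52 to 0.45 for both FOXA2 and KLF5. It ran from -0.72 to 0.53 for both NAPSA and GATA6, near the floor of the table, where missing loci can widen it.

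**Figure D3:**
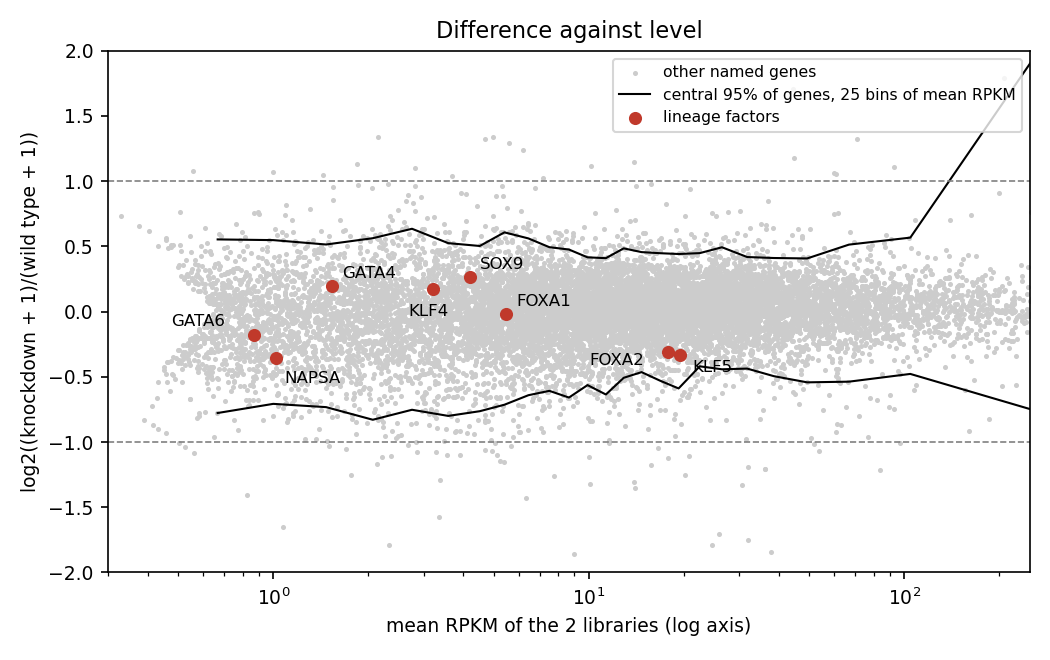
Log2 difference of knockdown over wild type, with a pseudocount of 1, against mean RPKM on a log axis for the named genes (grey; genes beyond the axes are not drawn) and the lineage factors (red), with black lines for the central 95% of genes in bins of mean RPKM and dashed lines at a 2-fold difference. All the lineage factors lie between the black lines.

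No member changed direction in any of the 7 alternative settings that gave it a value. A pseudocount or a filter on the mean cannot change a direction, so only rescaling the libraries could have done so. Rescaling that lowers the knockdown values cannot do so for a member that was lower, which leaves only equal medians for the lower members. Rescaling to equal medians multiplied the knockdown values by 1.006, and to equal upper quartiles by 0.974. FOXA1 lay nearest to 0, with -0.01 at a pseudocount of 5 and -0.18 at equal summed RPKM. The members that were higher came closest to 0 when the libraries were rescaled to equal summed RPKM, which multiplies the knockdown values by 0.871 and moves the median log2 difference of all genes to -0.17. KLF4 then had a log2 difference of 0.02, GATA4 of 0.07 and SOX9 of 0.10, all still above that median, while KLF5 and FOXA2 had -0.52 and -0.50. Loci without a gene name made up 49.5% of the knockdown sum and 42.3% of the wild type sum. NAPSA was the member that moved most with the pseudocount, with a log2 difference of -0.66 at 0.1 and -0.12 at 5.

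**Figure D4:**
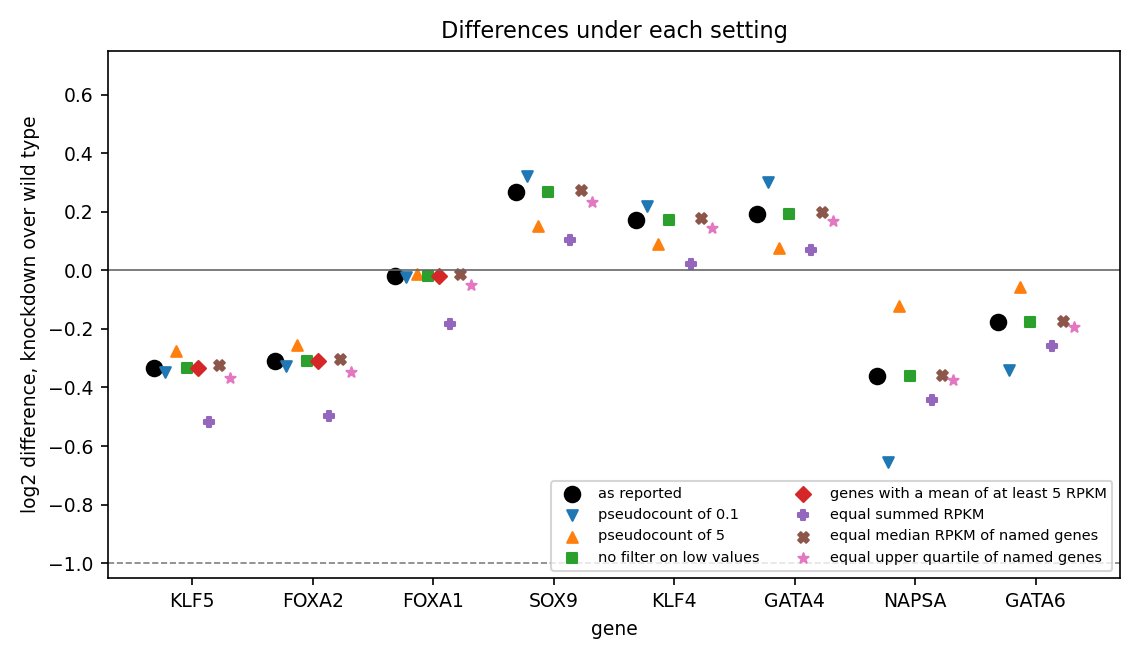
Log2 difference of each lineage factor, knockdown over wild type, as reported (black) and in each alternative setting (coloured), with the dashed line at a 2-fold lower level. No gene crosses 0 in any setting shown, and FOXA1 comes nearest, at -0.01 with a pseudocount of 5. Only rescaling the libraries could make a gene cross, and for the lower genes only rescaling to equal medians could.

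Genes around these factors in the lung and endoderm programme gave the setting for their levels. Of 25 alveolar and airway genes, 6 were measured, and NKX2-1 and the surfactant genes SFTPA1, SFTPA2, SFTPB, SFTPC and SFTPD were not among the values used here. None of the 6 was 2-fold apart, with a median log2 difference of 0.05. As 1.37% of all genes were 2-fold apart, a count of 0 in this list or those below is not a result about it. AGER, a receptor abundant in alveolar type I cells, had the lowest log2 difference of the 6, with 1.34 RPKM in the knockdown library and 2.42 RPKM in the wild type library. The mucin MUC5B had 0.760 RPKM in the knockdown library and 1.27 RPKM in the wild type library. The caveolar protein gene CAV1, another type I cell marker that many other cells express, had 276 RPKM in the knockdown library and 218 RPKM in the wild type library.

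Of 32 other lung and foregut transcription factors, 20 were measured and 18 reached a mean of 1 RPKM. None was 2-fold apart, 12 were lower and 6 higher by any amount, and the median log2 difference was -0.17. Over all genes, 47.9% were lower by any amount and the median was 0.01. Whether the list departs from all genes was not tested. ELF3, an epithelial ETS factor, had 35.3 RPKM in the knockdown library and 48.0 RPKM in the wild type library. CEBPB, a leucine zipper factor and the highest of the list, had 126 RPKM in the knockdown library and 160 RPKM in the wild type library. TBX2, a T-box repressor whose value is summed over 2 loci, had the lowest log2 difference of the list, -0.46. HOXA5, needed for mouse lung formation, was the highest by log2 difference at 0.53, with 6.94 RPKM in the knockdown library and 4.48 RPKM in the wild type library. FOXP1, a forkhead repressor made in lung epithelium, had a log2 difference of 0.49.

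Some messages of liver and gut endoderm were also measured, and many were not. Not among the values used here were 14 of 22 factors, with PDX1, CDX1 and CDX2 among them. The same held for 15 of 26 liver secretory and gut genes, with ALB, AFP, TTR, VIL1 and LGALS4 among them. MUC13, a gut mucin gene, had 2.38 RPKM in the knockdown library and 2.32 RPKM in the wild type library. Of 22 liver, pancreas and gut factors 8 were measured, and the 7 that reached a mean of 1 RPKM had a median log2 difference of 0.03 with none 2-fold apart. NR5A2, a nuclear receptor of liver and pancreas, was lowest at -0.38, with 18.4 RPKM in the knockdown library and 24.3 RPKM in the wild type library. Of 26 liver secretory and gut genes 11 were measured, and the 9 that reached a mean of 1 RPKM had a median of -0.06, again with none 2-fold apart. The fibrinogen chain genes FGG, FGA and FGB had log2 differences of -0.61, -0.52 and -0.09, and FGG had 3.23 RPKM in the knockdown library and 5.47 RPKM in the wild type library. AMBP, which encodes alpha-1-microglobulin and bikunin, had 1.71 RPKM in the knockdown library and 0.875 RPKM in the wild type library. CPS1, the urea cycle enzyme, was the highest of these, with 62.4 RPKM in the knockdown library and 65.4 RPKM in the wild type library.

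In the factors' own families, no gene that reached a mean of 1 RPKM was 2-fold apart. The median log2 differences of such genes were -0.23 over 19 other forkhead genes and -0.23 over 6 other SOX genes. They were -0.07 over 16 other KLF and SP genes and 0.02 over 9 GATA genes and partners. FOXF2, FOXP1, FOXP4 and SOX4 are also in the list of lung and foregut factors, so these lists are not independent. The forkhead genes FOXO4 and FOXN3 were lowest, at -0.47 and -0.44, and KLF9, a target of glucocorticoid receptor, had -0.47. The other aspartic proteases measured were CTSD, BACE2 and BACE1, of which CTSD, the lysosomal cathepsin D, had 172 RPKM in the knockdown library and 214 RPKM in the wild type library. Among 5 measured pluripotency partners of KLF4, LIN28B, which binds let-7 precursors, was highest by log2 difference at 0.90 and MYC differed least at -0.05. With a pseudocount of 0.1, LIN28B and SOX21 passed 2-fold, with log2 differences of 1.22 and -1.55. They were 2 of 105 companion genes, beside 300 of 12158 among all genes in that setting, so the 2 are not a result about the lists.

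**Figure D5:**
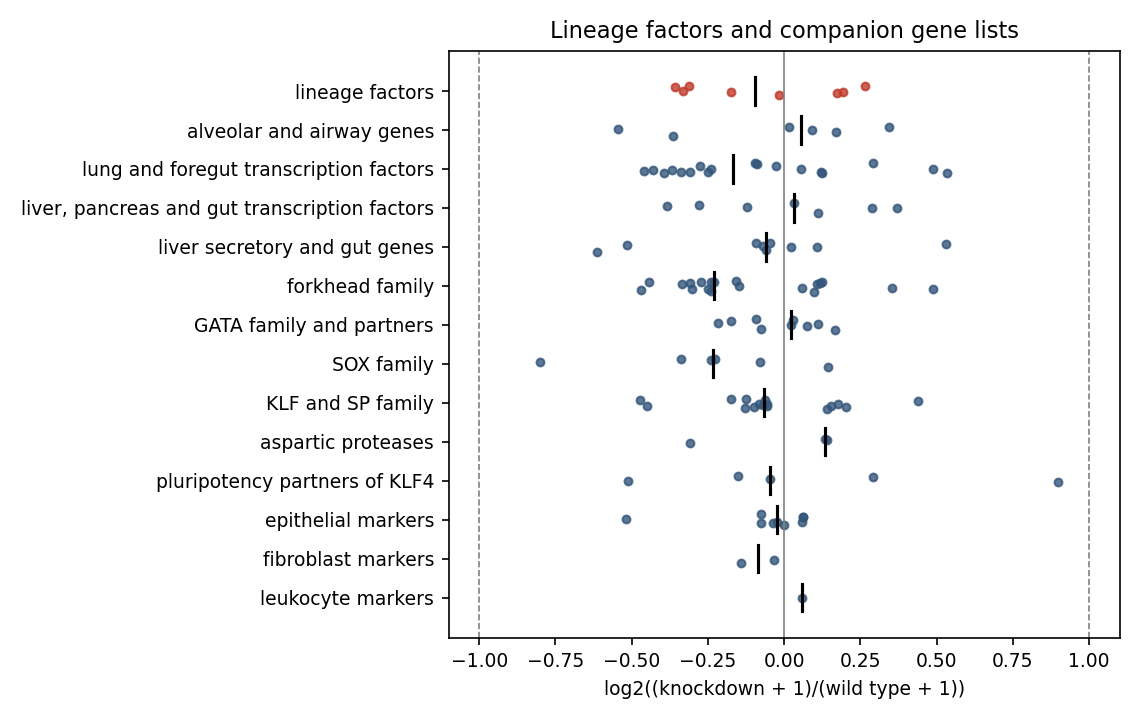
Log2 difference, knockdown over wild type with a pseudocount of 1, of the lineage factors (red) and of genes whose mean reached 1 RPKM in each companion list (blue), with a black bar at each median and dashed lines at a 2-fold difference. No gene passes a dashed line, and LIN28B and SOX21 are the farthest from 0.

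The epithelial markers were led by keratins. KRT8 had 1521 RPKM in the knockdown library and 1545 RPKM in the wild type library. The summed RPKM of 9 measured epithelial genes was 4698 in the knockdown library and 4756 in the wild type library. KRT7, KRT8 and KRT18 made up 4660 RPKM of this in the knockdown library and 4716 RPKM in the wild type library. CDH1, E-cadherin, had 22.5 RPKM in the knockdown library and 23.8 RPKM in the wild type library. The other 5 markers measured, KRT19, EPCAM, CLDN4, CLDN7 and ESRP2, lay under the median of the named genes, and ESRP1 was not among the values used here. CLDN7 had the lowest log2 difference of the 9, -0.52, with 1.33 RPKM in the knockdown library and 2.34 RPKM in the wild type library. By any amount, 6 of the 9 were lower and 3 higher, beside 47.9% lower over all genes. Whether so few genes depart from that share was not tested. Of fibroblast markers 2 of 8 were measured, summing to 3.92 RPKM in the knockdown library and 4.33 RPKM in the wild type library. Of leukocyte markers 3 of 8 were measured, summing to 5.06 RPKM in the knockdown library and 4.27 RPKM in the wild type library, with PTPRC not among the values used here. Of 7 endothelial markers 0 were measured. Over 2 libraries any pair of genes correlates at 1 or -1, so no gene was ranked by likeness of pattern to the members.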

How the data were processed

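The deposited values are RPKM that the authors computed from 2 RNA-seq libraries, 1 per group. The tools TopHat2 2.0.10 and Cufflinks 2.2.1 are named per the submitters' processing notes, with no role, as are the builds GRCh38.p12 and BDGP5, the second a fly build. The sources used here do not give the annotation, filters or use of strand. Without read counts, the depth of each library is unknown.

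From these values, loci with no name (1909 of 14952) were left out, the 102 names on several lines were summed, and differences were taken as log2((knockdown RPKM + 1)/(wild type RPKM + 1)). Counts used a mean of at least 1 RPKM and a size of 2-fold. Each member was set beside genes within 2-fold of its mean RPKM. There was no test. The members and gene lists were chosen with earlier results of these data known. Named genes were the members, MYOCD, and the 2 highest and 2 lowest of every list by log2 difference with its 2 highest by level. Some genes this rule takes are not reported here. A few neighbours and relatives of the members were added after their values were seen. Promoters came from RefSeq (GRCh38.p14), and gene positions and UTRs from GENCODE release 29. Python 3.11.15, numpy 2.4.6 and pandas 2.3.3 were used, and the calculation was tested on simulated data.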

Additional observations from a re-analysis of the deposited data

How the results depend on the processing

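The count of members at least 2-fold apart was 0 in all 7 alternatives, and no member changed sign in an alternative that gave it a value. Only the alternatives that rescale the libraries could change a sign, and for the lower members only rescaling to equal medians could. The median log2 difference of the members, -0.10 as reported, was -0.31 with a mean of at least 5 RPKM, which leaves FOXA1, FOXA2 and KLF5, and -0.22 with equal summed RPKM, which moved the median of all genes to -0.17. All genes at least 2-fold apart numbered 167 as reported, 300.0 with a pseudocount of 0.1 and 60.0 among protein-coding genes. With equal sums 68 were higher and 140 lower. Of 105 genes of the companion lists, 0 were at least 2-fold apart as reported and 2 with a pseudocount of 0.1. Depth is unknown, and NAPSA and GATA6 lie near the floor of the table. No paired analysis was possible because each group has 1 library.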
